A study of Mus musculus with 6 samples.

Results

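The miR-101 family was followed in small RNA libraries of 3 oviducts and 3 primary tumors of mice. Its members were the 3 rows mmu-miR-101a-3p, mmu-miR-101a-5p and mmu-miR-101b-3p of the 1915 mouse microRNA names in the count table, taken by name and by no measured value. The oviducts were normal tissue of the genotype Dicer1+/D1693N, and the tumors, labelled ADT tumors of the oviduct, were Dicer1ko/D1693N. All 6 samples thus carried the D1693N allele, beside a normal allele in the oviducts and a knocked-out allele in the tumors. No sample was treated. Not given in the sources used here were the driver of the knockout, the age of the animals and whether each sample was from its own animal. Tissue state, genotype and a tag in the column names that differs between the groups changed together and cannot be told apart.

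MicroRNAs are cut from hairpin precursors. Dicer makes the last cuts and releases a 5p and a 3p strand, of which usually one is kept and guides repression of messenger RNAs that match its seed, the bases near its 5′ end. The RNase IIIb domain of Dicer, which D1693N alters, cuts the 5p side. The miR-101 hairpins are known for a 3p guide strand that represses Ezh2, the histone methyltransferase of the Polycomb repressive complex, and loss of miR-101 with gain of Ezh2 has been described in several carcinomas. Ezh2 messenger RNA was not measured by this assay.

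The mature sequences show how close the loci are to each other, with bases 2 to 8 in capitals. All 3 members matched RefSeq (GRCm38.p6), the source of every sequence listed here.
mmu-miR-101a-3p: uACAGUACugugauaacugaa
mmu-miR-101b-3p: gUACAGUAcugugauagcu
mmu-miR-101a-5p: uCAGUUAUcacagugcugaugc
mmu-miR-101c: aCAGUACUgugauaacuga

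The listed 3p strands share 1 core but not 1 register. The listed miR-101b-3p starts 1 base earlier, so its bases 2 to 8 read UACAGUA where those of miR-101a-3p read ACAGUAC, and the latter stretch begins at base 3 of miR-101b-3p. Set in the register of miR-101a-3p, the 2 strands differed by a single substitution, A16G, counted from the 5′ end of miR-101a-3p, over 18 compared bases. Over the 21 bases of miR-101a-3p the hairpins too differed only by A16G, and a G stands before the first base in both. The counts do not record where each read started, so which seed register the miR-101b reads had was not tested. A further name, mmu-miR-101c on chromosome 9, is 19 bases long and equals bases 2 to 20 of miR-101a-3p.

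The hairpins are printed with their listed strands in capitals, since the 5p arms set the loci further apart than the 3p arms.
Mir101a: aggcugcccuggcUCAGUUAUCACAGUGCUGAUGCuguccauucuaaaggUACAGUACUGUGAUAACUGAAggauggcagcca
Mir101b: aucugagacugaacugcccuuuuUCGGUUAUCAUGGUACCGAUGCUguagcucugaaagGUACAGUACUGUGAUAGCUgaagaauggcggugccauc

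Over 22 shared bases the 5p strands differed at 5. Mir101a lies on the minus strand of chromosome 4, from 101346945 to 101347027 (GRCm38), within an exon of the long noncoding RNA E130102H24Rik in GENCODE M21. Mir101b lies on the plus strand of chromosome 19, from 29135279 to 29135375, in an intron of Rcl1, a gene of ribosomal RNA processing. GENCODE lists 0 other microRNA genes within 10000 bases of either hairpin.

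The known target was searched for matches to both seeds, on the strand of the messenger RNA. The longest annotated Ezh2 3′ UTR of GENCODE M21 has 402 bases and holds 2 matches, printed with the match in capitals.
Site 1, chr6:47530465-47530493, minus strand: aggaaccttgaGTACTGTgggcaatttag
Site 2, chr6:47530409-47530438, minus strand: gaatttgcaaaGTACTGTAacagtaattta

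GTACTGT, the complement of bases 2 to 8 of miR-101a-3p, occurs at both sites. TACTGTA, the complement of bases 2 to 8 of the listed miR-101b-3p, overlaps it at site 2 and is not present at site 1. Among the 15295 genes with a 3′ UTR at least as long, the first 402 bases held GTACTGT in 2.71%, TACTGTA in 3.33% and GTACTGTA, which contains both, in 0.745%. These are matches of letters and no measure of repression.

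Mouse counts per library ranged from 297039 to 580390 for oviducts and from 154002 to 272167 for tumors. Levels are given as CPM, counts scaled to a common library size, with trimmed mean of M-values (TMM) factors, which ranged from 0.734 in tumor 1 to 1.49 in tumor 3. A single strand, miR-143-3p, took 44.1% to 47.2% of all oviduct counts, 13.9% of those of tumor 3 and 60.9% of those of tumor 1. Summed markers of multiciliated cells, the miR-34 and miR-449 strands, spanned 14867 to 21618 CPM across oviducts against 422 to 1209 CPM across tumors. In the oviducts most of this was miR-34c-5p, which fell (log2 -5.83), as did miR-34b-5p (log2 -5.01) and miR-34b-3p (log2 -1.53). The strands miR-34c-3p (log2 -0.96) and miR-449a-5p (log2 -2.15) were not called. The 5p:3p count ratio of the miR-34c hairpin fell too (log2 -5.82), and the part of strand ratios in these sums was not tested. Markers of epithelium in general (the miR-200 family, miR-203 and miR-205) lay between 7218 and 12212 CPM against 4165 to 7298 CPM. Of these 7 strands miR-203-3p rose (log2 1.39), miR-200c-3p fell (log2 -1.03) and 5 were not called. Smooth muscle markers, nearly all miR-143-3p by level, lay between 490745 and 558463 CPM against 94683 to 836236 CPM, and among them miR-145a-5p (log2 -4.76) and miR-145a-3p (log2 -1.90) fell. The other tested strands of that list, miR-143-3p (log2 -0.45), miR-143-5p (log2 -1.21) and miR-133a-3p (log2 -1.23), were not called. The endothelial miR-126a pair lay between 7146 and 9548 CPM against 15198 to 20197 CPM, and both its 3p (log2 1.48) and 5p strand (log2 1.04) rose. Leukocyte markers lay between 1427 and 2404 CPM against 1430 to 7316 CPM, and none of them was called. Red-cell markers lay between 4487 and 5656 CPM against 1876 to 11663 CPM. Among them miR-451a rose (log2 1.76), miR-486a-5p was not called (log2 -0.012) and the other strands were not tested. No marker in these lists was at 0 in all libraries. Their part in the miR-101 values was not tested, and in whole tissue fewer cells of a type and less RNA per cell cannot be told apart.

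The main product, mmu-miR-101a-3p, had 2065, 1032 and 617 counts for oviducts 1, 2 and 3 against 657, 332 and 465 for tumors 1, 2 and 3. These made 6439, 1884 and 2439 CPM for the oviducts against 3308, 1425 and 2044 CPM for the tumors. Oviduct 1 stood far above every other library and the groups overlapped. The means were 3587 ± 2485 and 2259 ± 960 CPM (SD, n = 3 each), and edgeR did not call the difference (log2 -0.67, SE 0.52, adjusted p = 0.299). The 95% interval of the log2 change ran from -1.84 to 0.51, so the data allow a fall to 0.279 of the oviduct level and a rise to 1.42 times it. Without oviduct 1 the log2 change was -0.27, and without tumor 1 it was -1.29 (edgeR adjusted p = 0.702 and 0.0604).

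Few tested names stood as far apart in oviduct 1. There miR-101a-3p stood 2.98-fold above the mean of oviducts 2 and 3, and 2 of the 226 tested names other than miR-101c had a larger fold, miR-5121 and miR-142a-3p, both at or below 112 CPM in every oviduct. Its SD between oviducts on the log2 scale was 0.93, beside a median of 0.33 over tested names. These names were chosen after their values were seen.

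The second locus was even among the oviducts and higher in the tumors. The strand mmu-miR-101b-3p had 131, 195 and 106 counts for the oviducts against 163, 157 and 156 for the tumors, whose libraries were smaller. Its level was 408, 356 and 419 CPM in oviducts 1, 2 and 3 and 821, 674 and 686 CPM in tumors 1, 2 and 3. Every tumor stood above every oviduct. Ranks of counts within a library need no scaling and here leave out miR-101c. Among all names miR-101b-3p took place 88, 93 and 85 for the oviducts against 61, 67 and 71 for the tumors. The strand miR-101a-3p was in place 18, 44 and 33 against 27, 46 and 37. A rank among all names also moves when other names change. Among 3p names alone miR-101b-3p took place 35, 37 and 37 for the oviducts against 33, 34 and 39 for the tumors, and the groups overlapped. The means of 394 ± 33.8 and 727 ± 81.6 CPM (SD, n = 3 each) gave a 1.84-fold rise by edgeR (log2 0.88, SE 0.29, adjusted p = 0.0283, 95% interval of the fold 1.17 to 2.90).

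**Figure D1:**
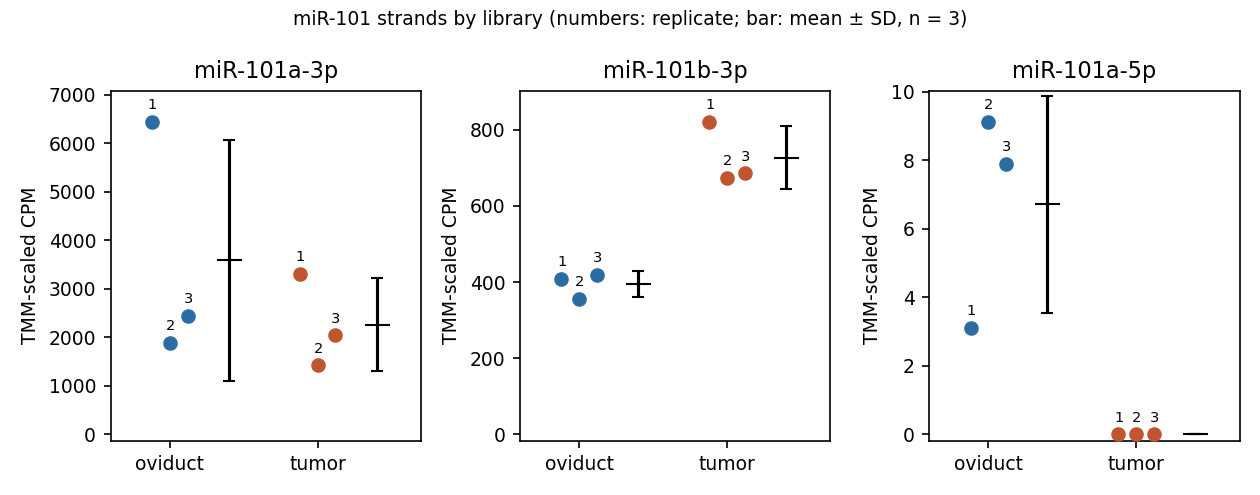
TMM-scaled CPM (vertical axes, each from 0) of the 3 miR-101 strands in the 3 oviducts and 3 tumors; points are libraries with their replicate number, and bars give the mean ± SD. Oviduct 1 stands apart for miR-101a-3p at 6439 CPM, the groups do not overlap for miR-101b-3p, and miR-101a-5p had 0 counts in every tumor.

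Calls were common in this comparison. Of 227 tested names 52.4% were called, 26.9% as higher and 25.6% as lower in the tumors, and for 60.4% the CPM of every tumor lay on 1 side of that of every oviduct. Among tested 3p names 41.8% were called as higher. The call of 1 of the 2 tested members therefore lies near the background. The median log2 change was 0.20 over all tested names, 0.89 over the 110 tested 3p names and -1.04 over the 95 tested 5p names. At 0.88, miR-101b-3p lay at the middle of the 3p names, 55 of which had a higher (more positive) log2 change, while 90 of them had a higher log2 change than miR-101a-3p. The split of 61 higher and 58 lower calls became 72 and 26 with library totals alone and 42 and 92 with TMM factors from 3p names alone, which put the median of all tested names at 0.65 and -0.73. The number of 3p names with a higher log2 change was also taken with library totals and with RLE, upper-quartile or 3p-only TMM factors. It stayed between 54 and 56 for miR-101b-3p and between 90 and 91 for miR-101a-3p. Such factors shift all names nearly alike, so this order could hardly move. For miR-101b-3p and miR-101a-3p it was 249 and 329 of 425 tested 3p names with no low-count filter. Without oviduct 1 it was 74 and 100 of 130.

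The level itself moved with the scaling. The log2 change of miR-101b-3p was 1.27 with library totals alone (edgeR adjusted p = 0.0693) and 0.0095 with TMM factors from 3p names alone (adjusted p = 0.980), factors that treat 3p names as unchanged on average. Under these 3p-only factors miR-101a-3p was called as lower (log2 -1.57, adjusted p = 0.0427). The rise of miR-101b-3p was called in 5 of 15 alternative settings and was above 0 in all 15. The call was lost when any 1 oviduct, tumor 1 or tumor 3 was left out, at log2 values of 0.58, 0.72 and 0.59 without oviducts 1, 2 and 3, 0.53 without tumor 1 and 0.83 without tumor 3. These fits also tested more names, 241 to 262 against 227. With all 6 libraries, a filter at a mean of 10 CPM (0.55) or no low-count filter (0.59) lost the call as well. The cause of these losses was not tested.

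**Figure D2:**
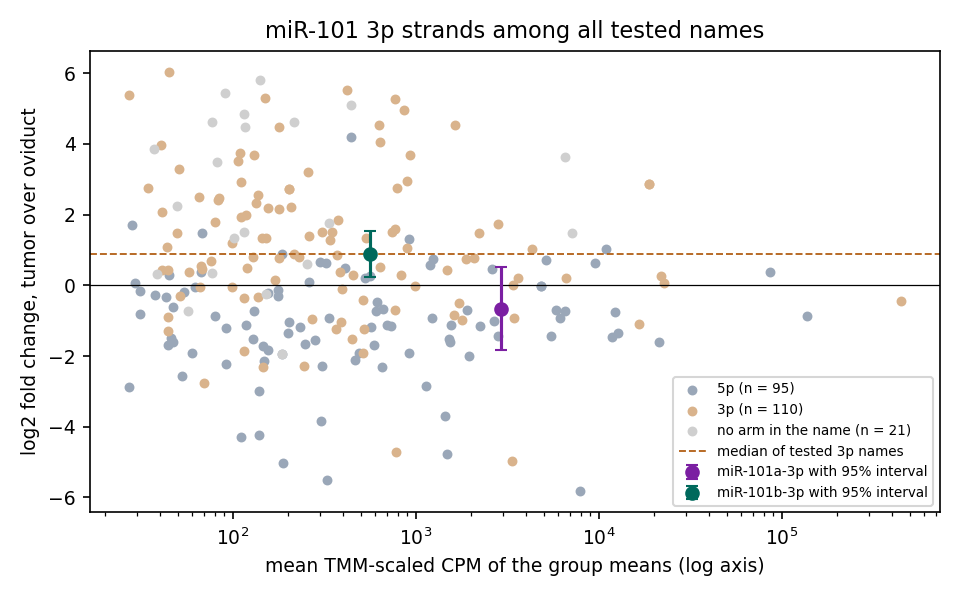
Log2 fold change of tumor over oviduct (vertical axis) against the mean CPM of both groups (horizontal axis, log scale) for tested names other than miR-101c, which repeats miR-101a-3p; coloured points are 5p, 3p and armless names. Bars on the 2 miR-101 strands are 95% intervals, and miR-101b-3p (0.88) sits on the dashed median of the 3p names (0.89) while miR-101a-3p (-0.67) sits below it.

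The loci were next compared within each library, where scaling drops out. For each count of miR-101b-3p there were 15.8, 5.29 and 5.82 counts of miR-101a-3p in oviducts 1, 2 and 3, and 4.03, 2.11 and 2.98 in tumors 1, 2 and 3. The strand miR-101a-3p was thus the more abundant in all 6 libraries, and every tumor had a lower ratio than every oviduct. As a share of both strands miR-101b-3p held 5.97%, 15.9% and 14.7% for the oviducts against 19.9%, 32.1% and 25.1% for the tumors. The mean share was 12.2% ± 5.41 in oviducts and 25.7% ± 6.13 in tumors (SD, n = 3 each). The mean log2 ratio differed by -1.42, 2.67-fold lower in the tumors, with a two-sided exact permutation p of 0.1, the smallest that 3 against 3 allows. Without oviduct 1 the difference was -0.92 (exact permutation p = 0.2), and the groups still did not overlap. The exact 95% interval of the share was 13.9% to 18.1% in oviduct 2 and 17.2% to 22.8% in tumor 1, the closest pair across the groups, and these overlapped. The sources used here do not state how reads that match both strands were assigned.

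**Figure D3:**
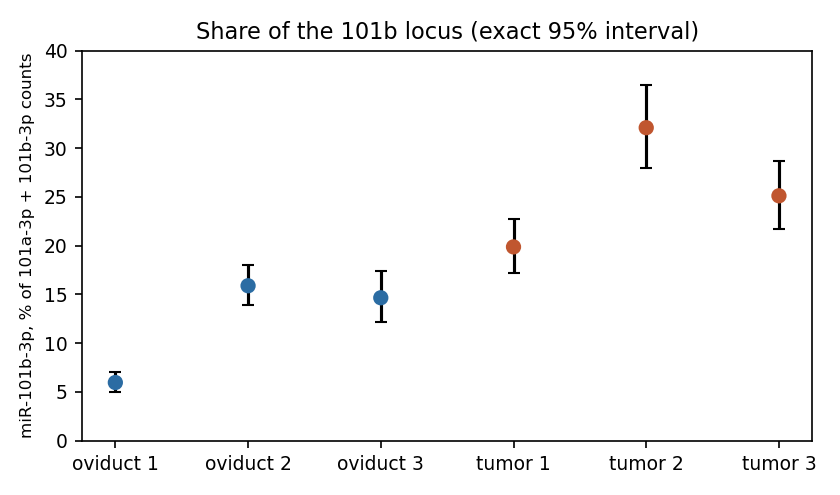
Share of miR-101b-3p in the counts of both 3p strands (vertical axis, percent) by library (horizontal axis), with exact Clopper-Pearson 95% intervals that cover counting error only. Oviduct shares run from 5.97% to 15.9% and tumor shares from 19.9% to 32.1%.

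The summed level of both 3p strands did not separate the groups. It was 6847, 2240 and 2858 CPM for oviducts 1, 2 and 3 against 4129, 2099 and 2730 CPM for tumors 1, 2 and 3. The groups overlapped, with means of 3982 ± 2501 and 2986 ± 1039 CPM (SD, n = 3 each). The row mmu-miR-101c was left out of this sum. Its counts, 2066, 1032 and 617 for oviducts against 657, 332 and 465 for tumors, were equal to those of miR-101a-3p but for 1 count in oviduct 1. It therefore carries no separate information on a further locus.

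The 5p strands were barely present in either group. The passenger strand mmu-miR-101a-5p was counted 1, 5 and 2 times in oviducts 1, 2 and 3 and 0 times in every tumor. It missed the filter on low counts, so it has no tested change. Its share of the mir-101a counts was 0.0484%, 0.482% and 0.323% in oviducts 1, 2 and 3. In tumors 1, 2 and 3 the 0 counts beside 657, 332 and 465 of the 3p strand allow shares of up to 0.457%, 0.904% and 0.645%. Pooled, the oviducts held 8 of 3722 counts (0.215%) and the tumors 0 of 1454, which allows up to 0.206%. A loss of the 5p strand in the tumors was therefore hardly detectable at this depth. The row mmu-miR-101b-5p had 0 counts in every oviduct against 0, 2 and 1 in tumors 1, 2 and 3.

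The 5p:3p ratio of each hairpin was tested with limma for 142 hairpins, of which 51.4% were called and 47.2% were called as falls. Neither miR-101 hairpin was among them. For mir-101a the log2 change of the ratio was -1.22 (SE 0.80, 95% interval -2.99 to 0.54, limma adjusted p = 0.228). With 0 tumor counts this value follows the pseudocount: it was -3.28 at 0.1 (adjusted p = 0.0307) and turned to 0.64 at 5, and without oviduct 1 it was -2.12 (adjusted p = 0.0404). The hairpins next to it in the order of changes were miR-135a (log2 -1.26) and miR-340 (log2 -1.21). The mir-101b hairpin, with 0 counts of its 5p strand in the oviducts and 3 in the tumors, has a ratio that the pseudocount sets as well, and no change is given for it. Over all 142 hairpins the median was -1.53. Of these, 33 had a 5p share under 1% in the oviducts, as both miR-101 hairpins did, and in 11 of the 33 the 5p strand had 0 counts in the tumors. The median change of the 33 was -0.051. Their calls are not counted here, because where 5p counts are few the pseudocount sets the ratio when the 3p level or the depth changes. The same limit holds for their median, which is therefore no reference for mir-101a. Some of the 33 had more 5p counts, such as miR-148a with 162 in the oviducts and 21 in the tumors.

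Strands of like abundance were set beside each member. The 3 tested 3p strands nearest to miR-101a-3p in oviduct level were miR-378a-3p (log2 -0.0015), miR-151-3p (log2 0.20) and miR-141-3p (log2 -0.92), and none of them was called by edgeR (adjusted p = 0.997, 0.572 and 0.114). Of those nearest to miR-101b-3p, the 3p strand of miR-125b-2 rose from 384 ± 108 to 1157 ± 256 CPM (log2 1.59) and miR-148b-3p rose from 383 ± 71.2 to 1097 ± 133 CPM (log2 1.52). The remaining neighbour, miR-222-3p, fell from 409 ± 36.3 to 83.6 ± 25.0 CPM (log2 -2.28). In edgeR their adjusted p-values were 0.00321, 0.00246 and 0.00128.

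Names that share a seed added little. Of 1679 mature mouse sequences in RefSeq, 2 others share bases 2 to 7 with a 3p member in its listed register. They were miR-144-3p, a red-cell strand with 6, 2 and 0 counts for the oviducts against 5, 1 and 0 for the tumors, and miR-582-5p with 0, 0 and 3 against 1, 0 and 2. The names whose log2 CPM over the 6 libraries was most like the summed miR-101 3p level were miR-195a-3p (Pearson r = 0.66), miR-107-3p (0.64), miR-486a-5p and miR-486b-5p (0.61 each, from identical counts) and miR-29b-3p (0.60). These are descriptions over 6 libraries in which oviduct 1 is the highest for the miR-101 sum, and edgeR called none of these names as changed.

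Other microRNAs known to target Ezh2 were taken from a list of 15 names, of which 13 passed the filter. With TMM scaling 7 fell, 1 rose and 5 were not called, and the median log2 change was -1.02, beside -1.04 for all tested 5p names. Every tested member of the list but miR-214-3p is a 5p strand. Of tested 5p names 48.4% were called as lower, so the 7 falls lie near that background. The groups did not overlap for 11 names that were lower and 1 that was higher in the tumors, beside 55.8% of tested 5p names that were lower without overlap. The most abundant, miR-26a-5p, fell from 32329 ± 9528 to 10626 ± 1289 CPM, by 1.61 ± 0.31 (SE) on the log2 scale in edgeR (adjusted p = 0.00162). Its relative miR-26b-5p fell from 4123 ± 289 to 1530 ± 158 CPM (log2 -1.43). Among let-7 strands, repressors of growth genes, let-7f-5p (log2 -1.35), let-7i-5p (log2 -1.02), let-7d-5p (log2 -1.67), let-7e-5p (log2 -1.13) and let-7b-5p (log2 -0.91) fell. The strands let-7c-5p (log2 -0.73), let-7a-5p (log2 -0.69) and let-7g-5p (log2 -0.70) missed the threshold. Their edgeR adjusted p-values were 0.0560, 0.0716 and 0.0909. The rise was that of miR-214-3p, a stromal strand, from 204 ± 1.45 to 1384 ± 323 CPM (log2 2.76, SE 0.33). The 8 calls became 1 with library totals alone and 12 with TMM factors from 3p names alone, and 6 to 11 when single libraries were left out. The names miR-217-5p (2 counts in the oviducts, 0 in the tumors) and miR-124-3p (0 and 1) missed the filter.

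**Figure D4:**
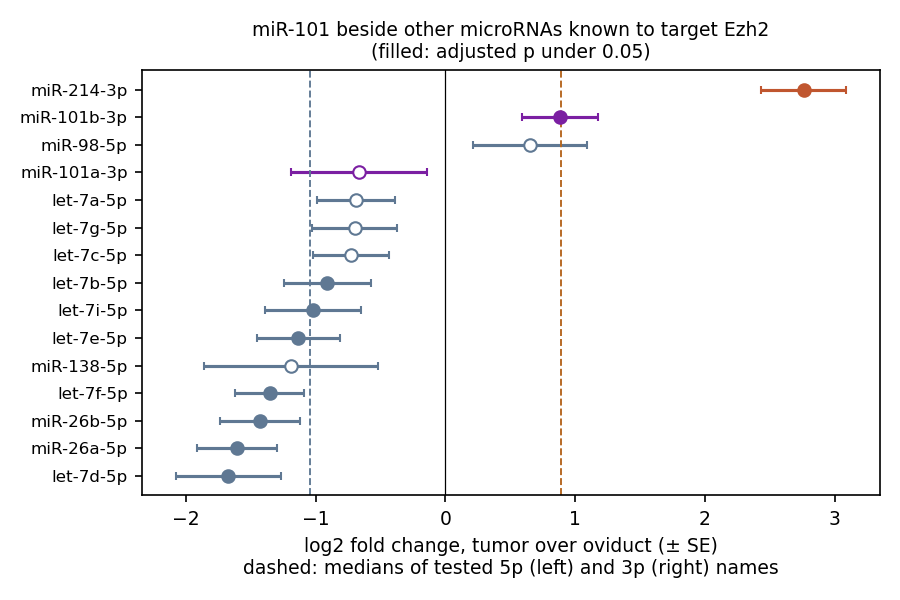
Log2 fold change ± SE of tumor over oviduct (horizontal axis) for the 2 miR-101 3p strands and 13 tested microRNAs known to target Ezh2, filled where the edgeR adjusted p was under 0.05. All 5p strands but miR-98-5p (0.65) lie below 0, where the dashed median of tested 5p names is (-1.04), and miR-101b-3p and miR-214-3p lie above 0.

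**Figure D5:**
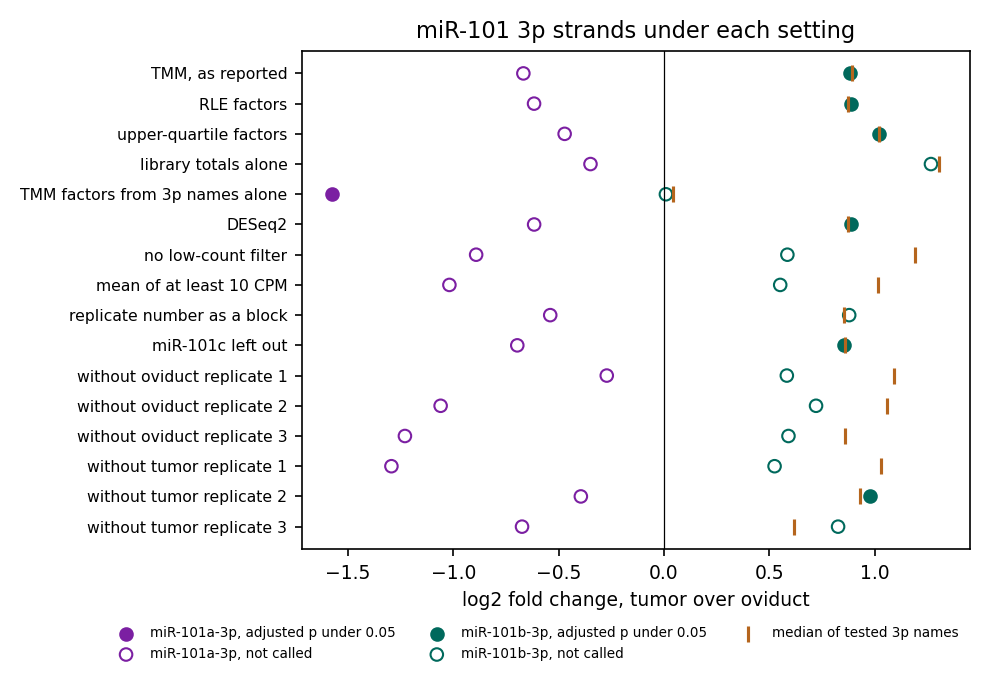
Log2 fold change of tumor over oviduct (horizontal axis) of the 2 miR-101 3p strands under each setting (vertical axis), filled where the adjusted p was under 0.05, with ticks for the median of the tested 3p names. Under every setting shown miR-101b-3p lies to the right of miR-101a-3p, while both move with the scaling, miR-101b-3p between 0.0095 and 1.27.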

How the data were processed

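Small RNA libraries of 3 oviducts and 3 tumors were used. Per the labels' protocols, RNA was extracted with a miRNeasy kit and libraries were made with a TruSeq small RNA kit. The submitters' processing notes name cutadapt, a read trimmer. The deposited values are raw counts per mature microRNA name, taken from BAM files of trimmed reads per the file headers. Not given in the sources used here were the aligner, the counter, the microRNA reference and the treatment of reads that match several names.

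Names of other species (67, with 10 counts in all) were left out. Groups came from the sample titles. Since the labels do not tie samples to animals, a p-value covers the spread between libraries, which can be technical. Libraries of a group differed by a chi-square of at least 24.4 per degree of freedom, so no column is a copy of another. This does not exclude separate libraries of the same animal. Names were tested with edgeR 4.0.16 in R 4.3.3 (filterByExpr with a minimum count of 10, TMM, robust quasi-likelihood, Benjamini-Hochberg over 227 names, threshold 0.05, two-sided). The SE was taken from the log2 change and its F statistic. Hairpin ratios, log2 of (5p count + 0.5) over (3p count + 0.5), were tested with limma 3.58.1 for hairpins with a mean of at least 20 counts. Copies of a name were pooled. Alternatives used DESeq2 1.42.0, other scalings, filters and pseudocounts, the replicate number as a block and each library left out. On simulated data for tumor against oviduct (204 names passing the filter), edgeR called 2 of 160 unchanged names and 2 of 10, 14 of 19 and 15 of 15 names changed by a log2 of 1, 2 and 3. On 142 simulated hairpin ratios limma called 56 of 70 changed by a log2 of 3 and 8 of 72 unchanged ones, so its count of changed ratios can hold false calls. Intervals and limits of 0 (3 counts) cover counting error only, since PCR reads are not independent molecules. Sequences came from RefSeq tables (GRCm38.p6), where 1623 of 1915 names matched, and positions from GENCODE M21.

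The members were taken by name, but they, the lists and the tests were chosen with earlier results of these data known. Named microRNAs were the members, other rows of the family and names sharing bases 2 to 7. Of the Ezh2 list the 6 most abundant and the other let-7 strands were named. Also named were the 5 most like the summed 3p level by Pearson r of log2(CPM + 1). The 3 tested 3p strands nearest in oviduct level to each 3p member and the hairpins next to mir-101a were named as well. Figures used matplotlib 3.10.9 in Python 3.11.15.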

Additional observations from a re-analysis of the deposited data

How the results depend on the processing

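Over 15 alternatives the log2 change of miR-101a-3p stayed below 0, between -1.57 and -0.27, and was called in 1, with TMM factors from 3p names alone (-1.57, edgeR adjusted p = 0.0427). Leaving out single libraries gave -1.29 to -0.27. The change of miR-101b-3p lost its call with library totals alone (1.27), with TMM factors from 3p names alone (0.0095), with no low-count filter (0.59), with a filter at a mean of 10 CPM (0.55) and with the replicate number as a block (0.88, adjusted p = 0.0553), and ranged from 0.53 to 0.98 when single libraries were left out. It kept its call with RLE or upper-quartile factors, DESeq2, without miR-101c (an alternative chosen after seeing the data) and without tumor 2. The cause of each lost call was not tested. The 5p:3p ratio of mir-101a was -3.28 with a pseudocount of 0.1 and 0.64 with one of 5, since with 0 tumor counts the pseudocount sets the value, and -2.12 to -0.68 when single libraries were left out. The log2 ratio of miR-101a-3p to miR-101b-3p stayed between -1.70 and -0.92 in 9 alternatives, and the exact p was 0.25 for differences within replicate numbers (replicate block), the smallest that 3 pairs allow. In the Ezh2 list 8 calls became 1 with library totals alone, 12 with TMM factors from 3p names alone or with no low-count filter, and 6 to 11 when single libraries were left out. Calls among all names numbered 98 to 174 and hairpins 50 to 88. The labels do not say whether replicate numbers pair the samples. Deviations of libraries with the same number correlated at -0.07, 0.04 and -0.13 across names. Such values cannot show whether samples with the same number share an origin. Counts under 10 per library limit every statement on the 5p strands.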
